A study of Mus musculus with 21 samples.

Results

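The comparison concerned the lungs of 11 mouse fetuses whose labels run from animal M121 to animal M207 (the letter gives the sex), out of 21 fetuses with mRNA arrays in the series. Of these 11, 8 came from dams exposed to mainstream cigarette smoke (CS) and 3 from dams kept in filtered air (AIR), whom the sample labels call untreated. The remaining 10 fetuses, 4 CS and 6 AIR, run from F301 to M447. The sets are called the lower-number and the higher-number range here. Membership was decided by the number in the label alone, and no expression value was used. All fetuses were wild-type Balb/c mice taken by caesarean section at E18.5, and the dams, mated at 8 weeks of age, had inhaled smoke or filtered air from day 2.5 to day 17.5. The CS group held 4 males and 4 females and the AIR group 2 males and 1 female. Each array measured RNA of the lung of 1 fetus, without pooling. The sources used here do not say what the animal numbers stand for, which fetuses were littermates, or why the number ranges differ in their share of CS. The 3 AIR fetuses are M141 (AIR male 1), F181 (AIR female 6) and M187 (AIR male 2), while 1 CS fetus is M121 (CS male 1) and the other 7 run from M191 to M207, so exposure and order of numbering are only partly separated within the range. The study took 1 brother and 1 sister from a litter, so littermates are likely among the 11. Every p-value given here counts the fetuses as independent, leaves litter out and may therefore be too small.

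Shortly before birth the mouse lung moves from branching growth into the saccular stage. Its epithelium leaves the cell cycle and divides into type II cells, which make surfactant, and flat type I cells, while club cells of the airway begin to secrete and a capillary bed forms against the air spaces. Dividing cells switch on a shared set of genes for DNA replication and mitosis, so that the summed level of these genes in whole tissue is a common readout of how much division goes on. In whole lungs, fewer cells of a type and less RNA per cell cannot be told apart, which holds for every gene group below.

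Expression was described for 22180 genes, each represented by 1 probe set, as log2 intensity after robust multi-array averaging (RMA). A step of 1 means 2 times the intensity, and array medians lay between 2.1 and 2.2, near the level where a probe set is hard to separate from background. Differences are CS minus AIR with the standard error (SE) of the limma fit, and adjusted p-values were corrected over all 40543 probe sets tested. A gene was said to rise or fall at an adjusted p under 0.1, that is a false discovery rate of 10%. A looser fold threshold served for counts, for which a gene needed more than 1.2-fold change in either direction and 0.05 as the upper limit of p before adjustment. The arrays were alike, with correlations of 0.952 to 0.971 among the 11, and Y-linked genes matched the labelled sex in 21 of 21 arrays. Lung identity was clear, since the mean of the 34 type II genes lay between 6.18 and 7.49 in the 11 lungs.

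Several lung pieces carried RNA of neighbouring tissue. Against the median of all 21 arrays, the mean of 25 heart muscle genes was 2.60 higher in CS female 8 and 1.68 higher in AIR male 2, and the mean of 17 thymocyte genes was 3.17 higher in CS male 1 and 1.76 higher in CS female 8. Oesophageal genes were 0.98 higher in CS male 1 and 0.79 higher in AIR male 1. The remaining CS lungs had low heart levels, with list means between 3.61 and 3.88, against 4.33, 5.90 and 4.61 in the 3 AIR lungs. Of the 25 heart genes, 4 were lower in CS at the fold threshold, and 19 were once CS male 1, CS female 8 and AIR male 2 were left out, with a median difference of -0.81 with all 11 arrays and -0.68 without these 3. The heart and oesophagus means were also fitted as covariates, which changed how many genes were called (given below). Beyond that, the part of this tissue in the results was not tested. Counts with and without these 3 arrays are therefore given for all genes and for some of the lists. Among the other lists, leaving the 3 out took genes lower at the fold threshold from 1 to 7 for oesophagus and from 4 to 7 for matrix. For the IGF axis the number fell from 5 to 3.

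**Figure D1:**
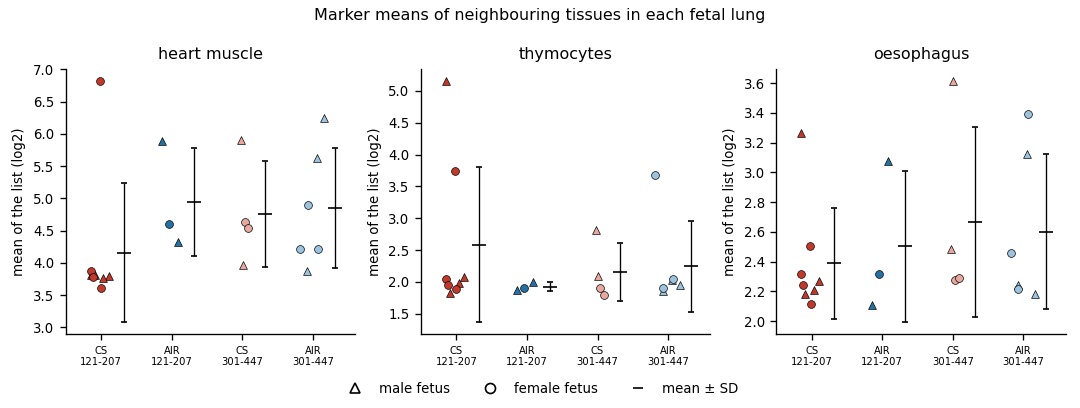
Mean log2 value of the heart muscle, thymocyte and oesophagus lists in each of 21 fetal lungs, by exposure and animal number (CS left of AIR within each range), with group mean ± SD. CS female 8 stood at 6.82 for heart muscle and CS male 1 at 5.16 for thymocytes, far from the other CS lungs of their range.

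In the lower-number range, genes of dividing cells made up much of what rose in CS lungs, while those that fell included genes of type II and airway cells, lipid synthesis and capillaries. At a false discovery rate of 10%, 66 of 22180 genes (0.298%) changed, of which 22 rose (0.0992%) and 44 fell (0.198%), and the lowest adjusted p was 0.0313. With the 11 arrays quantile-normalized again, 39 rose and 42 fell. The fold threshold took 2069 genes (9.33%), 862 higher (3.89%) and 1207 lower (5.44%) in CS. The lists below therefore have to be read against shares of about these sizes. In 896 genes (4.04%) no CS lung overlapped any AIR lung, 376 of them higher (1.7%) and 520 lower (2.34%) in CS, and this held for each of the 66 genes that changed. Just inside the limit lay Lrrc8b, Racgap1 and Trip13, at adjusted p of 0.0968, 0.0980 and 0.0984, and just outside lay Tacc3, Adgrf5 and Cep128, all at 0.105.

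The call of single genes rested on few AIR lungs. Without AIR male 1, AIR male 2 or AIR female 6, 0, 2 and 1 genes passed the false discovery rate, against 15 to 106 when a CS lung was left out. Without CS male 1, CS female 8 and AIR male 2 together, 12 genes passed the false discovery rate, 8 of them among the 66. The fold threshold took 2040 genes (9.2%) without these 3 arrays, 919 higher (4.14%) and 1121 lower (5.05%) in CS.

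Mitosis was the list with most genes that rose. Of 58 genes of spindle, kinetochore and cytokinesis, 8 rose and 0 fell, and 55 were higher in CS at the fold threshold (52 without the 3 arrays with other tissue). Their median difference was 0.86, against 0.01 over all genes, and 58 of 58 were positive. Ccnb2, cyclin B2, which drives entry into mitosis, lay at 6.13 to 6.93 in CS lungs (median 6.54) and at 5.20, 5.27 and 5.55 in AIR lungs. The groups were separate, and the difference was 1.196 ± 0.16 (SE), a 2.29-fold rise with an adjusted p of 0.0313. Kif23, a kinesin of the central spindle needed for the final cut between daughter cells, lay at 5.11 to 5.97 in CS lungs (median 5.35), above 3.90, 4.16 and 4.50 in AIR lungs. Its difference of 1.301 ± 0.22 was the largest of the list among genes that rose (adjusted p = 0.0719).

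Other motors and checkpoint genes behaved alike. Spdl1, spindly, which brings the dynein motor to kinetochores, had 4.12 to 5.11 in CS lungs (median 4.53), against 3.12, 3.48 and 3.32 in AIR lungs, a difference of 1.31 ± 0.24 (adjusted p = 0.0824). This was the largest rise of all genes called. Kif18b, which shortens astral microtubules, ran from 5.19 to 6.06 in CS lungs (median 5.64) and stood at 4.23, 4.50 and 4.36 in AIR lungs (difference 1.28 ± 0.22, adjusted p = 0.0765). Kif15 and Kif11, motors that hold the spindle poles apart, differed by 1.23 and 1.16, and Racgap1, a partner of Kif23, by 1.08. Mki67, the gene of the Ki-67 antigen used to stain cycling cells, had 6.90 to 7.79 in CS lungs (median 7.41), against 5.997, 6.33 and 6.32 in AIR lungs. Mki67 thus rose 2.22-fold (adjusted p = 0.0816). CS male 4 was the lowest CS lung in Ccnb2, Spdl1 and Mki67 and still lay above each AIR lung.

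Genes that copy and pack DNA were shifted the same way. Of 46 DNA replication genes, 2 rose, and 36 were higher and 0 lower in CS at the fold threshold, with a median difference of 0.65. Ccna2, cyclin A2 of S phase and early mitosis, had 6.23 to 7.23 in CS lungs (median 6.92) and 5.44, 5.74 and 5.72 in AIR lungs, a difference of 1.23 ± 0.18 (adjusted p = 0.0466). Tyms, thymidylate synthase, lay at 5.10 to 5.77 in CS lungs (median 5.40), against 4.50, 4.28 and 4.76 in AIR lungs (difference 0.89 ± 0.16, adjusted p = 0.0816). Rrm2, the regulated subunit of ribonucleotide reductase, differed by 1.33 ± 0.26 but missed the limit at an adjusted p of 0.105. Among packing genes, Ncapd2 of the condensin complex differed by 1.203, Top2a, the topoisomerase that untangles chromosomes, by 1.17, and Hmgb2, a chromatin protein, by 1.03, and all 3 rose. Tcf19, a transcription factor switched on around the onset of S phase, had 4.77 to 5.27 in CS lungs (median 4.86), against 3.73, 3.95 and 4.05 in AIR lungs (difference 1.01 ± 0.13, adjusted p = 0.0313).

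Regulators of this programme moved less. Of 21 E2F, MYB and DREAM genes, 0 changed at the false discovery rate and 8 were higher at the fold threshold, with a median of 0.22. Foxm1, the activator of late cell cycle genes, differed by 0.67 ± 0.17 (adjusted p = 0.19), and E2f8, an atypical E2F repressor, by 0.83 ± 0.19 (adjusted p = 0.155). Mybl2, B-Myb, differed by 0.59 ± 0.25 (adjusted p = 0.531), and in this gene the CS lungs, at 3.09 to 4.08, overlapped AIR female 6 at 3.603. Its difference was 0.998 in males and -0.08 in females, each resting on 2 or 1 AIR lungs. Another, dimmer probe set of Mybl2, near the array median, differed by 0.74 (adjusted p = 0.237 in limma). Cell cycle inhibitors were mixed, with 2 of 14 higher and 1 lower at the fold threshold.

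The genes that rose most shared short promoter elements. The CHR, written TTTGAA, and the CCAAT box, written CCAAT, are bound in many late cell cycle genes by the MuvB and NF-Y complexes. Both were searched on either strand, from 250 bases before to 50 bases after the annotated start, in RefSeq promoters of build GRCm38.p6. Among the 12 largest rises, 11 were matched to a promoter, 11 of which held TTTGAA and 10 of which held both. Over all 26994 promoters of the table, 18.1% held TTTGAA, 37.9% held CCAAT and 7.11% held both. Of the 22 genes that rose, 19 were matched, 12 held TTTGAA and 11 held both (57.9%), and of the 44 that fell, 36 were matched and 1 held both (2.78%). In the mitosis list, which shares members with the genes that rose, 29 of 50 matched promoters held both (58.0%), compared with 3 of 36 in the DNA replication list (8.33%). The 4 largest rises with both elements are shown here, 5′ to 3′ on the strand of the gene, because they carry the elements that the group has in common, with matches in capitals. Spdl1 lies at chr11:34833592-34833891, Kif23 at chr9:61946750-61947049, Kif18b at chr11:102925075-102925374 and Ncapd2 at chr6:125191537-125191836, all on the minus strand.
Spdl1: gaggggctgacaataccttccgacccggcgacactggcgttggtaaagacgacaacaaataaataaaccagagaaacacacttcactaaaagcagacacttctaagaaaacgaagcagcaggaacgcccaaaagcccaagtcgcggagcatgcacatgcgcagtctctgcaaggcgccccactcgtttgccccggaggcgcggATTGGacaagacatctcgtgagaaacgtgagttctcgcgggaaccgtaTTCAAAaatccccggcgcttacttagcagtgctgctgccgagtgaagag
Kif23: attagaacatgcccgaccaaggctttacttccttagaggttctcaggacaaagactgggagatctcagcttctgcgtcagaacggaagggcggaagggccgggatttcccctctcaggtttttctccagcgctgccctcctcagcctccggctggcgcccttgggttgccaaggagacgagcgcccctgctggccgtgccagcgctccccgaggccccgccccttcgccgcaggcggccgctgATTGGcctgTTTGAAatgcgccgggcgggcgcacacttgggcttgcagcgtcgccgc
Kif18b: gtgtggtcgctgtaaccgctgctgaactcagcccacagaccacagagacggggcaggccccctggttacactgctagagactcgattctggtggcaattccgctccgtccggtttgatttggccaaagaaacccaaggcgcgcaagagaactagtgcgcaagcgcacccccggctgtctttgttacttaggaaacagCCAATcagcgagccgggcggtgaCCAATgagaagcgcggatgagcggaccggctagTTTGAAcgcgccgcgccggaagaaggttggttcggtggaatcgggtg
Ncapd2: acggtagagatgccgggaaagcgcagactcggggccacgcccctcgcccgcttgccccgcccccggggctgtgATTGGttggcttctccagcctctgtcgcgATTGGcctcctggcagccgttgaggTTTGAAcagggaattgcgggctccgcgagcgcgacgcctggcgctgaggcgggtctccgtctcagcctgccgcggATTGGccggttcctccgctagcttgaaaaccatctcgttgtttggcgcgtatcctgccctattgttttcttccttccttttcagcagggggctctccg

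The TTTGAA match, or its reverse complement TTCAAA, began 1, 2 and 3 bases downstream of the annotated start in Spdl1, Kif23 and Kif18b, with CCAAT or its complement 47 bases upstream in Spdl1, 7 in Kif23, and 53 and 30 in Kif18b. In Ncapd2 the TTTGAA match lay 123 bases upstream, with ATTGG matches 177, 148 and 48 bases upstream. The matches do not overlap each other in these 4 windows, and a match describes the letters only.

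**Figure D2:**
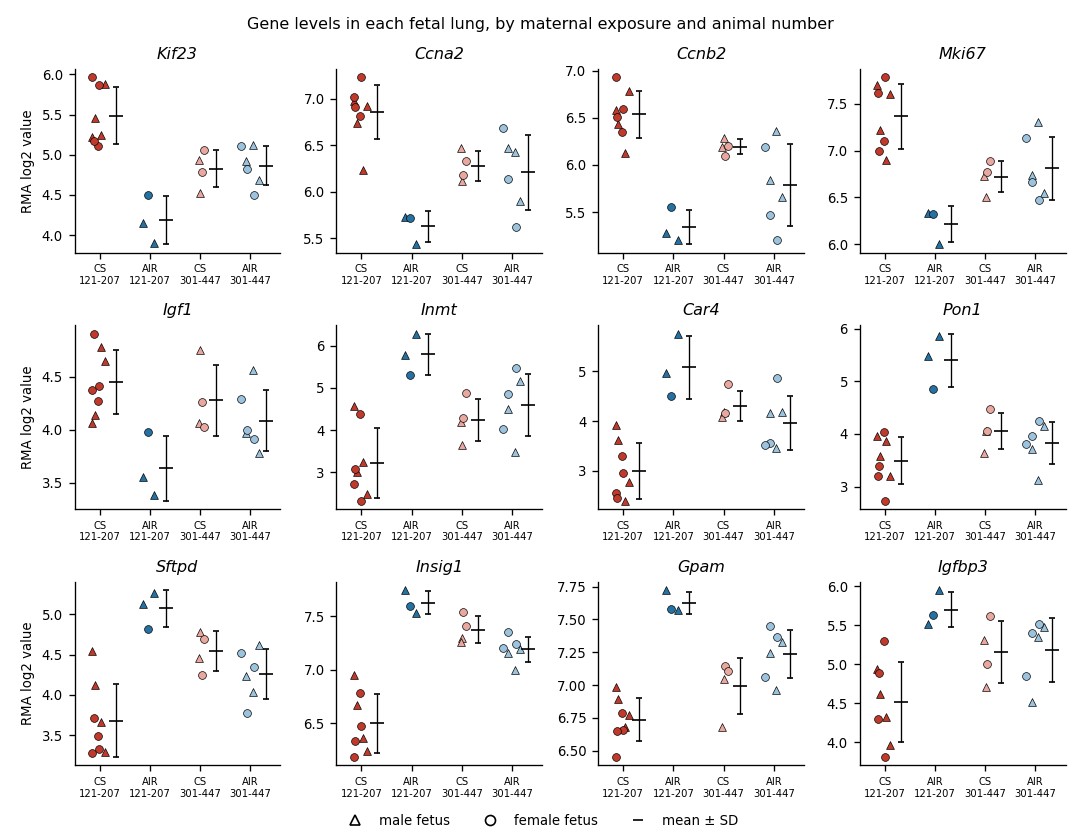
RMA log2 value of 12 genes in each of 21 fetal lungs (triangles male, circles female) with group mean ± SD, for CS and AIR fetuses of the lower-number range and then of the higher-number range. In the lower range no CS lung overlaps an AIR lung in any of the 12 genes, and in the higher range CS and AIR overlap in each of them. Most of the 12 are among the 66 genes called in the lower range, all of which are separate there. The choice of genes thus favours this contrast, and 4.04% of all genes are separate in the lower range.

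Among cell type lists, type II cells had most members lower in CS. Of 34 surfactant and type II genes, 2 fell and 0 rose, 24 were lower and 0 higher in CS at the fold threshold (21 without the 3 arrays with other tissue), and their median difference was -0.74. Sftpd, surfactant protein D, a collectin that binds microbes in the air space, had 3.28 to 4.55 in CS lungs (median 3.58), against 5.26, 5.13 and 4.82 in AIR lungs. It fell by 1.39 on the log2 scale (SE 0.25, adjusted p = 0.0824). Il33, an alarmin cytokine counted here with the type II genes, fell to between 1.77 and 2.50 in CS lungs. AIR lungs had 3.09, 3.42 and 3.12 (difference -0.98 ± 0.16, adjusted p = 0.0631), and these levels are close to the array median.

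Other type II genes differed in degree, and none of them passed the limit. Sftpb, whose peptide is needed for surfactant to spread, had 8.42 to 9.47 in CS lungs (median 9.01) and 9.81, 9.83 and 9.73 in AIR lungs (difference -0.79 ± 0.19, adjusted p = 0.167). Abca3, the lipid pump of lamellar bodies, had 5.54 to 6.60 in CS lungs, against 7.03, 7.07 and 6.73 in AIR lungs (difference -0.75 ± 0.19, adjusted p = 0.197). S100g, a small calcium-binding protein, had a wide gap, with 5.03 to 8.06 in CS lungs (median 7.14) and 9.35, 9.05 and 8.83 in AIR lungs (difference -2.34 ± 0.59, adjusted p = 0.180). In these genes the AIR lungs lay close together and the CS lungs were spread out, with CS female 7 lowest and CS male 1 highest in Sftpb, Abca3 and S100g. Cebpa, a transcription factor of epithelial and fat cell maturation, differed by -0.59 ± 0.15 (adjusted p = 0.179), and here CS male 1, at 4.95, reached into the AIR range of 4.90 to 5.18. Members of the list were uneven. Lamp3, a lamellar body membrane protein, differed by -1.04 ± 0.21 (adjusted p = 0.113) and Sftpa1, surfactant protein A, by -0.89 ± 0.26. Sftpc, surfactant protein C, which only type II cells make, averaged 11.39 ± 0.13 in CS lungs and 11.60 ± 0.06 in AIR lungs (SD, n = 8 and 3), a difference of -0.21 ± 0.11 (SE, adjusted p = 0.628). Sfta2, a surfactant-associated protein, differed by 0.006, and the transcription factors Nkx2-1 and Etv5 by 0.07 and 0.14.

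Airway and type I cell genes were lower in the same lungs. Of 23 airway secretory genes, 1 fell and 11 were lower at the fold threshold (median -0.54), and 0 were higher. Cyp4b1, a cytochrome P450 of club cells, fell to 3.29 to 4.26 in CS lungs (median 3.92), against 5.58, 5.27 and 4.81 in AIR lungs (difference -1.36 ± 0.21, adjusted p = 0.0528). Scgb1a1, the club cell secretory protein, had 7.13 to 9.35 in CS lungs and 10.09, 9.90 and 9.82 in AIR lungs, a difference of -1.51 ± 0.43 (adjusted p = 0.246). Of 21 type I genes, 0 changed at the false discovery rate and 14 were lower and 1 higher at the fold threshold (median -0.41). Aqp5, a water channel, overlapped, with 4.09 to 5.75 in CS lungs and 5.76, 5.81 and 5.74 in AIR lungs. Ciliated cell genes were weakly shifted, with 7 of 27 lower and 2 higher at the fold threshold, and of 13 neuroendocrine genes 0 passed it.

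Fluid clearance genes, most of them channels and pumps, serve the switch from secreting to absorbing lung fluid at birth. Of 16, 0 changed at the false discovery rate and 9 were lower at the fold threshold (median -0.44), 5 without the 3 arrays with other tissue. Aqp1, a water channel of capillaries, differed by -0.89 ± 0.19 (adjusted p = 0.129), with 4.68 to 5.77 in CS lungs and 6.31, 6.22 and 6.21 in AIR lungs. Subunits of the epithelial sodium channel differed by -0.48 in Scnn1a and -0.65 in Scnn1b, and Cftr, the chloride channel, by -0.90, with adjusted p of 0.291, 0.244 and 0.166.

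Lipid synthesis supplies surfactant, and its genes were partly lower. Of 31 fatty acid and glycerolipid genes, 1 fell and 11 were lower at the fold threshold (7 without the 3 arrays with other tissue), with a median of -0.21. Gpam, which attaches the starting fatty acid to glycerol phosphate, had 6.45 to 6.99 in CS lungs (median 6.73), against 7.57, 7.73 and 7.58 in AIR lungs (difference -0.89 ± 0.12, adjusted p = 0.0313). Scd1, a fatty acid desaturase, had the largest difference of all genes, -2.89 ± 0.60, with 3.17 to 6.38 in CS lungs and 7.88, 8.30 and 7.73 in AIR lungs, and its spread among CS lungs left it at an adjusted p of 0.116. Fasn, fatty acid synthase, differed by -0.74 ± 0.15 (adjusted p = 0.111). Of 21 cholesterol genes, 1 fell and 7 were lower at the fold threshold (4 without the 3 arrays). The gene that fell was Insig1, an endoplasmic reticulum protein that holds back the sterol-regulated transcription factors SREBP and is itself one of their targets. Insig1 had 6.19 to 6.95 in CS lungs (median 6.42), against 7.54, 7.75 and 7.60 in AIR lungs (difference -1.13 ± 0.16, adjusted p = 0.0466). Of the 4 probe sets of Fabp5, a fatty acid carrier, the brightest differed by -0.57 ± 0.14 (adjusted p = 0.19) and another by -0.85 (adjusted p = 0.0719).

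Endothelial genes were lower in CS, with a smaller median difference than the type II list. Of 33, 3 fell and 20 were lower at the fold threshold (median -0.32), and without the 3 arrays with other tissue 14 were lower and 1 higher. Car4, a carbonic anhydrase on the surface of lung capillaries that exchange gas, had 2.40 to 3.93 in CS lungs (median 2.87), against 5.76, 4.98 and 4.50 in AIR lungs, a 4.22-fold lower intensity (difference -2.08 ± 0.35, adjusted p = 0.0719). Kdr, the main receptor for the growth factor VEGF, had 6.71 to 7.07 in CS lungs and 7.48, 7.62 and 7.38 in AIR lungs (difference -0.59 ± 0.11, adjusted p = 0.0824). Sox18, an endothelial transcription factor, differed by -0.66 ± 0.12 (adjusted p = 0.0824). No CS lung overlapped an AIR lung in the 3 genes, and Car4 had the widest spread among AIR lungs.

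The deepest falls were of genes from several cell types. Inmt, which methylates indole amines and is made by lung fibroblasts, had 2.33 to 4.56 in CS lungs (median 3.04), against 6.28, 5.79 and 5.30 in AIR lungs. It was 5.92-fold lower in CS (difference -2.57 ± 0.45, adjusted p = 0.0816), and without the 3 arrays with other tissue the difference was -2.98 (adjusted p = 0.0437). Gdpd2, a glycerophosphodiester phosphodiesterase, had 1.84 to 4.18 in CS lungs and 5.83, 5.69 and 5.11 in AIR lungs (difference -2.20 ± 0.41, adjusted p = 0.0862). Pon1, paraoxonase, had 2.73 to 4.03 in CS lungs, against 5.86, 5.49 and 4.86 in AIR lungs (difference -1.91 ± 0.28, adjusted p = 0.0466). Car8, a carbonic anhydrase relative without the enzyme activity, was the gene with the smallest p, at 4.45 to 5.10 in CS lungs and 6.51, 6.25 and 5.94 in AIR lungs (difference -1.49 ± 0.17, adjusted p = 0.0313). Hdc, which makes histamine, had 3.17 to 3.91 in CS lungs and 5.06, 4.74 and 4.46 in AIR lungs (difference -1.35 ± 0.18, adjusted p = 0.0313). Scgb1c1, C6, Chad and Ly6c2 fell by 1.83, 1.37, 1.37 and 1.36 on the log2 scale. Ly6c2 has a near-identical neighbour, Ly6c1, with which its probe set may share signal. The other 32 genes that fell differed by -1.27 to -0.58.

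Blood cell and defence genes were lower where they moved. Of 24 macrophage genes, 1 fell and 7 were lower at the fold threshold (median -0.25). Tyrobp, the adaptor of myeloid activating receptors, had 5.73 to 6.11 in CS lungs and 6.37, 6.56 and 6.62 in AIR lungs (difference -0.58 ± 0.11, adjusted p = 0.0964), and Csf1r, the receptor for the macrophage growth factor, differed by -0.59 ± 0.12 (adjusted p = 0.109). Of 17 interferon response genes, 1 fell and 6 were lower at the fold threshold (median -0.28). Xaf1, an interferon-induced partner of the inhibitor XIAP, had 3.91 to 4.76 in CS lungs, against 5.41, 5.32 and 5.58 in AIR lungs (difference -1.09 ± 0.16, adjusted p = 0.0466). S100a8, a neutrophil granule protein, had 5.05 to 6.22 in CS lungs and 7.03, 6.91 and 6.86 in AIR lungs (difference -1.03 ± 0.22, adjusted p = 0.131). Klf4, a transcription factor counted here with the immediate-early genes, had 4.39 to 5.01 in CS lungs and 5.59, 5.55 and 5.50 in AIR lungs (difference -0.92 ± 0.13, adjusted p = 0.0466).

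The insulin-like growth factor (IGF) axis drives growth before birth, with binding proteins that hold the ligands. Of 20 genes, 0 changed at the false discovery rate, and 4 were higher and 5 lower in CS at the fold threshold. Igf1 had 4.07 to 4.91 in CS lungs (median 4.39), against 3.38, 3.55 and 3.98 in AIR lungs (difference 0.81 ± 0.19, adjusted p = 0.161). Igf2 differed by 0.51 ± 0.14 (adjusted p = 0.236) and Igfbp2 by 1.12 ± 0.31 (adjusted p = 0.245). Igfbp3, the main carrier in blood, had 3.81 to 5.30 in CS lungs (median 4.47) and 5.95, 5.52 and 5.63 in AIR lungs (difference -1.19 ± 0.28, adjusted p = 0.161). In Igf1 and Igfbp3 the groups did not overlap, which held for 896 genes in all (4.04%). Both genes were also picked by the published study on these lungs. By qPCR the paper reports a significant rise of Igf1 in female fetal lungs and no significant change in males. On the arrays of this range, Igf1 differed by 0.94 in males and 0.51 in females, the larger value being that of males. The female value rests on 1 AIR lung, so these values cannot decide whether the sexes differ.

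Of matrix genes, 29 in number, 4 were higher and 4 lower at the fold threshold, and 1 fell, the fibroblast gene Inmt described above. Fbn2, the fibrillin of early elastic fibres, was higher (difference 0.998 ± 0.24, adjusted p = 0.175), as was Vcan, the provisional matrix proteoglycan versican (1.06 ± 0.30, adjusted p = 0.236), while Fbln5, which assembles elastin late, was lower (-0.44 ± 0.11, adjusted p = 0.176). Eln, elastin itself, overlapped between groups (-0.22 ± 0.16, adjusted p = 0.789). Smoke constituents commonly induce targets of the aryl hydrocarbon receptor, NRF2 and p53. Their counts at the fold threshold were too small to tell from the share of all genes (3.89% higher and 5.44% lower). The lungs were taken at E18.5, after smoke ended on day 17.5. The paper chose this gap so as not to pick up acute, passing effects. Of 10 aryl hydrocarbon receptor genes, 0 were higher and 1 lower (Ahr, the receptor itself, at -0.46 ± 0.13, adjusted p = 0.253), and Cyp1b1 differed by 0.24 ± 0.09 (adjusted p = 0.462). Of 18 NRF2 targets 1 was lower, and of 16 p53 targets 0 passed. Hypoxia targets passed the fold threshold more often, with 4 of 17 higher and 1 lower, whereas 3.89% of all genes were higher. Without the 3 arrays with other tissue, 1 hypoxia target was higher and 0 lower. CS female 7 lay apart from the other lungs at a hypoxia list mean of 5.80. Of 25 oxidative phosphorylation genes 0 passed.

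Genes named in the networks of the published study were chosen by it on these 21 lungs, so their direction is not independent evidence. Of 19 network genes listed as higher, 5 rose and 15 were higher at the fold threshold, and of 34 listed as lower, 3 fell and 30 were lower. Median differences were 0.76 and -0.64.

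**Figure D3:**
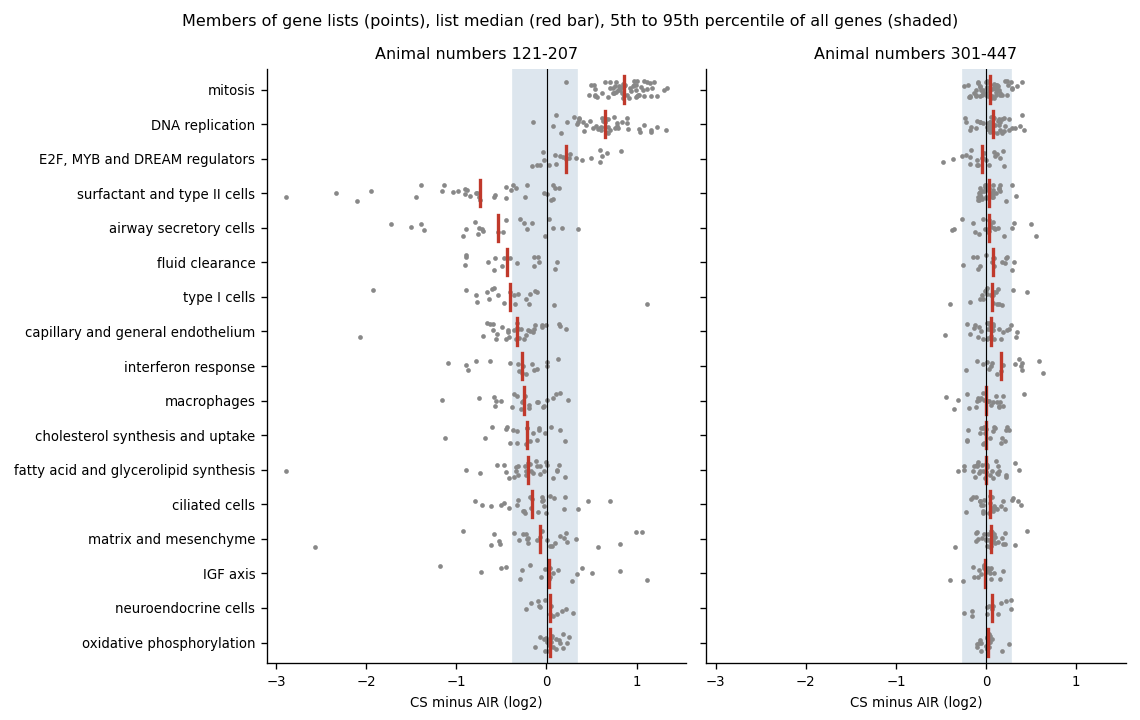
CS minus AIR on the log2 scale for members of 17 gene lists (points) with the list median (red bar), for the lower-number range on the left and the higher-number range on the right, over the range from the 5th to the 95th percentile of all genes (shaded). The mitosis median is 0.86 and the type II median -0.74 on the left, against 0.04 and 0.03 on the right.

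Within the CS group the lungs differed in degree. CS female 7, CS female 9 and CS male 3 had the 3 highest mitosis means, 5.52, 5.42 and 5.27, and the 3 lowest type II means, 6.18, 6.47 and 6.47. The other 5 CS lungs had mitosis means of 4.72 to 5.07 and type II means of 6.76 to 6.98. Among these 5, CS male 1 was highest in both, so the order of the 2 lists was not opposite throughout. No CS lung reached the AIR lungs, whose mitosis means were 4.05, 4.26 and 4.29 and whose type II means were 7.47, 7.49 and 7.42. CS female 7 was the CS lung farthest from AIR in 10 of the 22 genes that rose and 18 of the 44 that fell. CS male 4 was the nearest in 11 of the 22, and CS male 1, the lung with the highest thymocyte mean, the nearest in 16 of the 44. CS female 8, whose thymocyte mean was also raised, was the nearest in 8 of the 44, and CS male 2, whose mean was not, in 9. Without CS female 7 the false discovery rate took 23 genes, without CS female 9 19 genes and without CS male 3 15 genes.

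**Figure D4:**
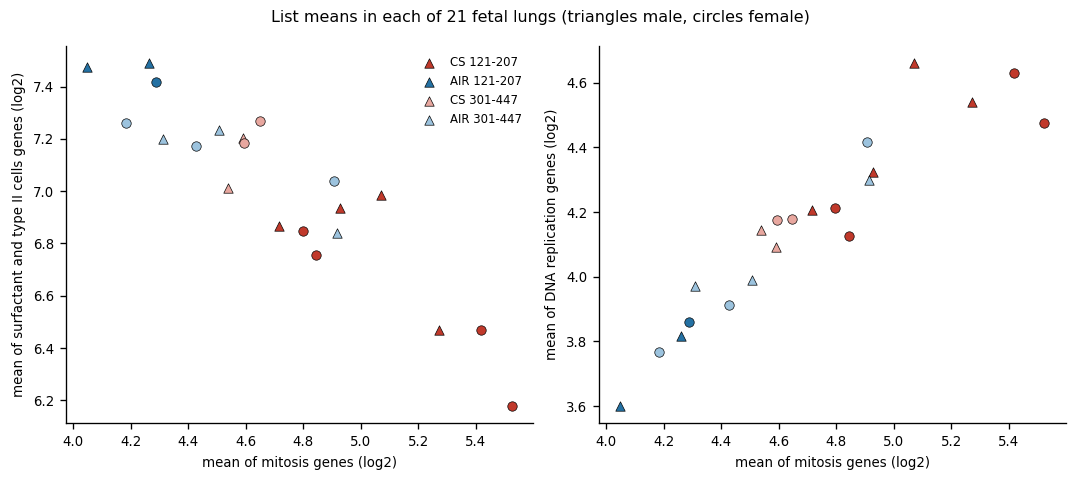
Mean log2 value of type II genes (left) and of DNA replication genes (right) against the mean of mitosis genes in each of 21 fetal lungs (triangles male, circles female). CS lungs of the lower-number range lie at mitosis means of 4.72 to 5.52 and the 3 AIR lungs of that range at 4.05 to 4.29, with the lungs of the higher-number range at 4.18 to 4.92.

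The CS effect was also fitted within each sex. Because no CS lung overlapped an AIR lung in the 66 genes, their sign within a sex was fixed by how they were called. The median difference of the 22 that rose was 1.05 in males and 0.97 in females, and of the 44 that fell -0.95 and -0.98. Fitted by sex, males had 1506 genes at the fold threshold (6.79%) and females 1130 (5.09%), with 0 at the false discovery rate in either. For the difference between the sexes 0 genes passed in limma (lowest adjusted p 0.682), and 620 had an unadjusted p under 0.05. The female comparison rests on 1 AIR lung, whose spread was assumed to be that of the other groups.

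The same comparison was made in the 4 CS and 6 AIR lungs of the higher-number range. There 0 genes passed the false discovery rate in limma, 822 had an unadjusted p under 0.05 and 738 passed the fold threshold (3.33%), none of them among the 66. A fit over 21 arrays tested the CS effect in the lower range minus that in the higher range and called 16 genes (0.0721%), 15 with a more negative effect in the lower range and Tcf19 with a more positive effect. This count fell to 1 without AIR male 1, to 0 without AIR male 2 and to 5 without AIR female 6, and ranged from 5 (without CS female 7) to 28 (without CS male 1) when a CS lung of the lower range was left out. At an unadjusted p under 0.05 it took 1701 genes (7.67%). In the lists, 45 of 58 mitosis genes and 25 of 34 type II genes were among the 1701. The lowest p was that of Insig1, with a CS effect of -1.13 in the lower range and 0.18 in the higher range (difference of effects -1.31 ± 0.19, adjusted p = 0.0447). Hdc had effects of -1.35 and 0.12 (difference -1.47 ± 0.23, adjusted p = 0.0474), and Acoxl, a peroxisomal oxidase relative measured near the array median, -0.96 and 0.08 (difference -1.04 ± 0.17, adjusted p = 0.0532).

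Group means of both ranges show where the lungs lay. The CS and AIR means of the higher range lay between those of the lower range in 65 of the 66 genes and in 5140 of all 22180, and calling genes for a wide gap in the lower range itself favours this. Insig1 averaged 6.50 ± 0.27 in CS lungs and 7.63 ± 0.11 in AIR lungs of the lower-number range (SD, n = 8 and 3), and 7.38 ± 0.13 in CS lungs and 7.19 ± 0.11 in AIR lungs of the higher-number range (SD, n = 4 and 6). Pon1 averaged 3.49 ± 0.45 in CS lungs and 5.40 ± 0.50 in AIR lungs of the lower range, and 4.06 ± 0.34 in CS lungs and 3.83 ± 0.40 in AIR lungs of the higher range. In the lower range, the type II list mean was 7.42 to 7.49 in AIR lungs and 6.18 to 6.98 in CS lungs. In the higher range it was 6.84 to 7.26 in AIR lungs and 7.01 to 7.27 in CS lungs. Neither exposure group thus overlapped between ranges in this list. Mitosis means of CS lungs were also separate between ranges, at 4.72 to 5.52 and 4.54 to 4.65. Those of AIR lungs overlapped, at 4.05 to 4.29 and 4.18 to 4.92. How many of all genes were separate between ranges was not counted. Whether the number ranges mark litters, dates or another property of the animals was not tested.

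**Figure D5:**
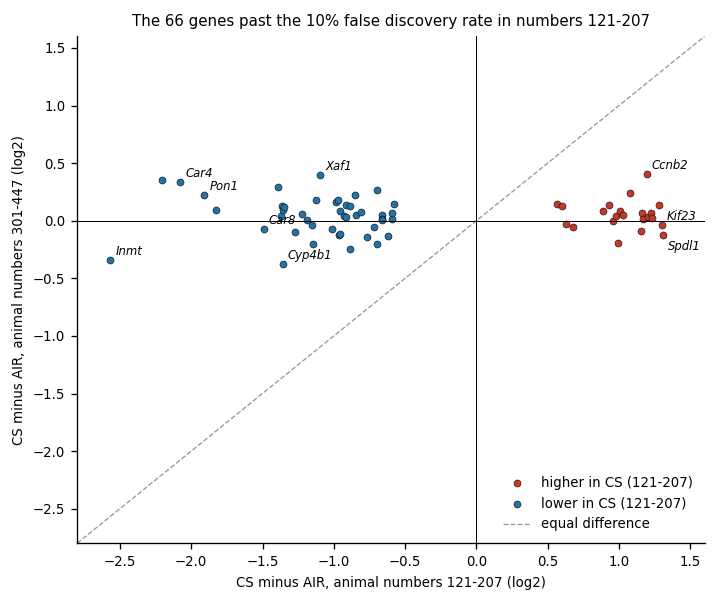
CS minus AIR (log2) of the 66 genes past the false discovery rate of 10%, in the lower-number range (x axis) against the higher-number range (y axis), with a dashed line of equal difference. The genes span -2.57 to 1.31 on the x axis, and their medians on the y axis are 0.05 for the 22 that rose and 0.05 for the 44 that fell.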

How the data were processed

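Total RNA of E18.5 lungs was amplified (Ovation PicoSL), and 1 array (Affymetrix, Mouse Gene ST 2.1) was hybridized per fetus. The authors made the deposited log2 values with Expression Console 1.3.0.187 by RMA, with sketch-quantile normalization and median polish over probes, and left out further AIR arrays at quality control. Detection calls were not used here, so no filter on detection was applied, and the number of arrays limits precision. Of 41345 probe sets, 802 redundant ones were removed and 40543 tested. A single symbol was carried by 23521 (several by 1820, none by 16004), of which 23328 matched RefSeq by gene number, giving 22180 genes, with the brightest probe set over 21 arrays standing for each gene.

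CS was compared with AIR in the 11 arrays of the lower-number range by lmFit and eBayes (limma 3.58.1, R 4.3.3) with the sexes merged and Benjamini-Hochberg adjustment. The same model over 21 arrays tested the difference between number ranges, and a model with sex the difference between sexes. Named genes were the 12 largest changes in each direction among genes called, the 3 lowest p of each of 45 lists, network and IGF genes, and the 6 lowest p for the range difference. Genes at the edge of a limit, and the 3 arrays set apart by other-tissue means over 1, were named after their values were seen. The members, lists and tests were chosen with earlier results of these data known. Other settings varied the arrays, the covariates, the weights, the normalization, the variance estimate and which probe sets were tested.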

Additional observations from a re-analysis of the deposited data

Results flagged for a closer look

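In the CS group of 8 lungs, 13 of 149 gene and list values held a lung set apart from the rest by Dixon's test, which chance alone does in about 1 of 20 groups. CS female 8 was apart in heart muscle genes, with a list mean of 6.82 against 3.61 to 3.88 in the other CS lungs, and with 6.738 for Sln (sarcolipin) and 6.092 for Ryr2 (the heart calcium release channel). The same lung was apart in brown fat (3.06 against 2.36 to 2.55), in smooth muscle (5.82 against 5.58 to 5.69), in distal tip and lung development regulators (4.88 against 5.08 to 5.24) and in Bmp4, a growth factor of the distal tip (5.855 against 6.33 to 6.72). CS male 1 was apart in oesophagus genes (3.265 against 2.11 to 2.50) and in Cebpa (4.952 against 4.25 to 4.56). CS female 7 was apart in hypoxia targets (5.80 against 5.16 to 5.39) and in Ndrg1, one of them (7.835 against 6.77 to 7.23). CS female 9 was lowest in Isg15, an interferon-induced protein (2.353 against 2.99 to 3.36), and CS male 3 highest in liver genes (2.20 against 1.66 to 1.84).

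The CS effect differed between number ranges at an adjusted p under 0.1 in 13 of the named genes. These are among the 16 called over all 22180 genes (0.0721%). Naming took in the 6 lowest p of this test and the largest effects in the lower range, so the count among named genes was raised by that choice. Values are the effect in the lower-number range minus that in the higher-number range on the log2 scale. The differences were -2.41 for Car4, -2.13 for Pon1, -1.68 for Sftpd, -1.62 for S100a8, -1.47 for Hdc, -1.42 for Car8 and -1.31 for Insig1. They were -1.28 for Isg15, -1.14 for Il33, -1.11 for Col4a4 (a basement membrane collagen), -1.05 for Klf4, -1.04 for Acoxl and 0.93 for Tcf19. Leaving out AIR male 2 of the lower range ended every call of this test.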

How the results depend on the processing

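The count of genes at a false discovery rate of 10% (66 as reported) moved with most settings. The count at the fold threshold (2069 as reported) fell most with the replicate block. Under the other settings it lay between 1496 (males alone) and 2321 (1 probe set per gene tested). At the false discovery rate there were 20 with sex as covariate, 312 with all 21 arrays in the fit, 171 among probe sets above the median, 351 with 1 probe set per gene tested, 131 with array weights, 29 without variance moderation, 17 and 29 with the heart or oesophagus mean as covariate, 0 in males alone (2 AIR lungs) and 12 without the 3 arrays high in other tissue. Leaving out 1 lung gave 0 (without AIR male 1) to 106 (without CS female 8). The CS effect differed between ranges in 16 genes as reported, 7 with sex as covariate, 27 among probe sets above the median, 53 with 1 probe set per gene and 10 with trend and robust moderation, and in 0 to 28 when 1 lung was left out. The causes were not tested. Leaving out an AIR lung left the AIR mean on 2 lungs, whereas leaving out a CS lung left it on all 3. With the replicate block, 0 genes passed the false discovery rate and 821 the fold threshold. CS and AIR shared only replicate numbers 1 and 2, whose deviations correlated at 0.08 and 0.083, so the numbers give no pairing. Of 2913 values of 108 named genes under other settings, 0 changed sign (which is fixed where CS and AIR lungs do not overlap), 2394 kept their side of the limit, 385 lost and 134 gained the call. Of 1170 list medians, 35 moved by more than the spread between lungs.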

Other observations

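Other gene groups were shifted little, unevenly or in part in the lower-number range. Over all genes, 3.89% were higher and 5.44% lower in CS at the fold threshold. Of 34 distal tip and lung development regulators 3 were higher and 0 lower in CS at the fold threshold, among them Foxp2, a transcription factor of the distal epithelium, at 1.07 ± 0.26 (SE, adjusted p = 0.176). Of 18 imprinted growth genes 3 were higher and 0 lower. Nnat, neuronatin, had 7.64 to 8.39 in CS lungs (median 8.18) against 6.94, 7.24 and 7.44 in AIR lungs (difference 0.90 ± 0.18, adjusted p = 0.110). Another, dimmer probe set of Nnat differed by only 0.36 (adjusted p = 0.668 in limma). Of 19 cartilage genes 1 fell (Chad) and 3 were higher, the widest being Cytl1, a cytokine-like protein, at 1.40 ± 0.40 (adjusted p = 0.250). Of 15 elastic fibre genes 2 were higher and 2 lower, and of 15 smooth muscle genes 3 were higher.

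Some lists, all of few genes, had a larger part lower at the fold threshold than the 5.44% of all genes. These were 22 glucocorticoid receptor genes and targets (6 lower), 19 stress response genes (5) and 18 genes of lipid uptake (5, and 1 higher). Others were 22 immediate-early genes (4), 17 circadian clock genes (3), 18 neutrophil granule genes (3) and 15 complement and class II genes (2). The complement component gene Hc had 4.45 to 6.78 in CS lungs, against 8.29, 7.92 and 7.54 in AIR lungs (difference -1.95 ± 0.48, adjusted p = 0.173). Of 23 skeletal muscle genes 2 were lower, of 21 liver genes 1 and of 26 oesophagus genes 1, near the share of all genes. Of 12 erythroid and 16 brown fat genes 0 passed. Of 17 thymocyte genes 1 was higher, and their median difference was 0.62 with all arrays and 0.04 without CS male 1, CS female 8 and AIR male 2. Of 10 reference genes 2 were higher and 1 lower, with a median of 0.07.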
